A study of Mus musculus with 4 samples.

Results

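The 1787 TLE3-bound regions described here lay in exons, in untranslated regions (UTRs) or at the ends of genes. They were all the regions of the 3 deposited lists whose annotation named an exon, a 5′ UTR, a 3′ UTR or a transcription termination site, called a gene end below. The lists, with 116513 lines, were joined into 69599 regions, so these made up 2.57% (2.45 to 2.69%) of the whole set. There were 424 exon regions, 66 in 5′ UTRs, 590 in 3′ UTRs and 707 at gene ends. No measured value entered the choice of the 4 classes.

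TLE3 was assayed by chromatin immunoprecipitation and sequencing in fat cells grown from 3 depots of male NMRI mice aged 4 to 5 weeks, with no allele or genetic change named in the labels. Stromal-vascular cells came from the epididymal (eWAT) or inguinal (iWAT) white depot or from pooled brown fat (BAT), taken from pools of 10 to 15 mice. Insulin at 30 nM and the PPARγ agonist rosiglitazone at 1 µM drove differentiation in all of them. They were harvested on day 8, and only cultures with over 50% differentiation were kept. Each depot had 1 TLE3 library, and 1 input library came from iWAT cells alone. There were no replicates, so no error between cultures can be given, and depot and library cannot be told apart. Pooled cultures of this kind can hold cells that had not become fat cells, and no expression was measured that would type them. Values are the deposited numbers of reads in a region, to which each library's own scaling constant had been applied, and are called scaled reads. In eWAT a read was worth 0.883 of them, against 0.526 for iWAT, 2.77 for BAT and 0.651 for the input. A value of 0 leaves room for 3 reads, or 2.65, 1.58 and 8.30 on the scale of eWAT, iWAT and BAT. All intervals are 95% intervals for counting error only, and positions are of the mm9 build.

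TLE3 is a Groucho family corepressor. It does not bind DNA by itself but is brought to chromatin by transcription factors, among them TCF, HES and some homeobox and nuclear receptor proteins. In fat cells it is known as a partner of PPARγ and an opponent of the thermogenic program. Enhancers and promoters are the usual places of such a factor. A region in an exon or 3′ UTR can be an enhancer that overlaps coding or untranslated sequence, and its target need not be the gene that holds it.

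Among the gene ends were 25 regions at the ends of microRNA genes, 252 to 1082 bp from the start site of the microRNA. Mature sequences from RefSeq (GRCm38.p6) were found for 22 of them. They are shown to identify these genes and were not read from the TLE3 regions, whose centres lay at the distances given above. Capitals mark the seed, bases 2 to 8, which pairs with target transcripts. The 5 microRNA genes printed are named after their values were seen.

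mmu-miR-148b-3p: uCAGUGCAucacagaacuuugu
mmu-miR-5114: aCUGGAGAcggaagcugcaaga
mmu-miR-96-5p: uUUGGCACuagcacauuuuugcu
mmu-miR-100-5p: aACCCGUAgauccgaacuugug
mmu-miR-455-5p: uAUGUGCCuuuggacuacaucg

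No mature sequence of the 22 genes shared its seed with another, so no seed family stood out by number. The strongest region with a sequence was that of Mir148b, on chromosome 15 from 103116321 to 103116551, where eWAT reached 131, iWAT 106 and BAT 69.1 over an input of 5.86. All 3 libraries were high there. At Mir5114, chromosome 19 from 44378097 to 44378327, the values were 84.8, 39.9 and 2.77, so BAT held a single read. Mir5114 lies beside Scd2, which encodes a stearoyl-CoA desaturase of fatty acid synthesis. At Mir96, chromosome 6 from 30118363 to 30118593, eWAT had 14.1, iWAT 38.9 and BAT 13.8. The Mir100 region, chromosome 9 from 41340437 to 41340667, ran the other way with 26.5, 4.73 and 2.77. The Mir455 region, chromosome 4 from 62918470 to 62918700, did likewise with 29.1, 9.46 and 8.30. Mir455 is a microRNA gene known for a role in brown fat differentiation. Over all 25, eWAT had a median of 29.1, iWAT 24.2, BAT 5.53 and the input 1.30. The lists held 6 of the 25 in all 3 depots, 7 in eWAT and iWAT, 7 in eWAT alone and 5 in iWAT alone.

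For the 5′ UTR regions, promoter sequence could be read. Of 44 regions in the first exon, 31 were centred within 250 bp of the start site. For 14 of these RefSeq (GRCm38.p6) gave exactly 1 promoter, from 250 bases before to 50 bases after the start. Windows of 30 bases are shown for 5 of them, all before the start site, because they hold motifs of factors known in fat cells. The 5 TLE3 regions were centred after the start site, by 202 bp at Acoxl and 103 bp at Cd302. At Cntf, Cd300c2 and Laptm4a the distances were 168, 229 and 138 bp. The windows therefore lie outside the TLE3 regions, in promoter sequence beside them. Capitals mark the motif.

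Acoxl, C/EBP core TTGCNNAA: tcatgagtgcaTTGCAAAActctagctgag
Cd302, C/EBP core TTGCNNAA: ctgtatgattcTTGCCAAAagggcacaaac
Cntf, nuclear receptor motif AGGTCA on the other strand: ttagcgtgatagTGACCTtgttgctaagta
Cd300c2, nuclear receptor motif AGGTCA on the other strand: agggtcacagcaTGACCTtgatcagtagtg
Laptm4a, AP-1 motif TGANTCA: gagaagaggtaTGAGTCAgtgagtctcgtg

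In all, 6 motifs were searched on both strands, of which TGANTCA and CACGTG read alike on both, and a match is only a match of letters. AGGTCA stood in 4 of the 14 promoters, and in 16.3% of all 32851 promoters of the table. TTGCNNAA stood in 3 of 14 against 10.8%, TGANTCA in 2 of 14 against 7.81%, and CACGTG in 1 of 14 against 7.15%. CCAAT and GGGCGG each stood in 4 of 14, against 37.4% and 35.7%. With 14 promoters these counts separate no motif from the table's shares.

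In level, the 4 classes were alike and close to the rest of the set. The medians over all 1787 regions for eWAT, iWAT, BAT and the input were 28.3, 24.7, 8.30 and 1.30 scaled reads, against 26.5, 27.3, 8.30 and 1.30 for the other 67812 regions. Exon regions had medians of 27.4, 22.6 and 8.30, 3′ UTR regions 28.3, 25.75 and 8.30, and gene ends 29.1, 25.75 and 8.30, in eWAT, iWAT and BAT. The 5′ UTR regions had 27.8, 24.4 and 11.1. Their input median of 1.95 was that of the 1463 promoter regions, while the other 3 classes had 1.30. An input of at least 5 scaled reads was found at 7.58% (3.28 to 16.5%) of 5′ UTR regions, 6.08% of gene ends, 4.72% of exon and 4.07% of 3′ UTR regions, and at 12.1% of promoters. The highest inputs were 11.06 in the 3′ UTR of Rbfox2, a splicing regulator gene (147, 114 and 38.7 in eWAT, iWAT and BAT), 11.06 at a second 3′ UTR region of Ddx6 (185, 136 and 38.7), and 10.4 at the end of 4930554I06Rik (127, 115 and 33.2). The last value was tied with a 3′ UTR region of Bspry. BAT, under 10 times the input in the 3 named first, did not list them. BAT held 3 reads or fewer at 968 of the 1787 regions and 0 reads at 311, so its low values are coarse.

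**Figure D1:**
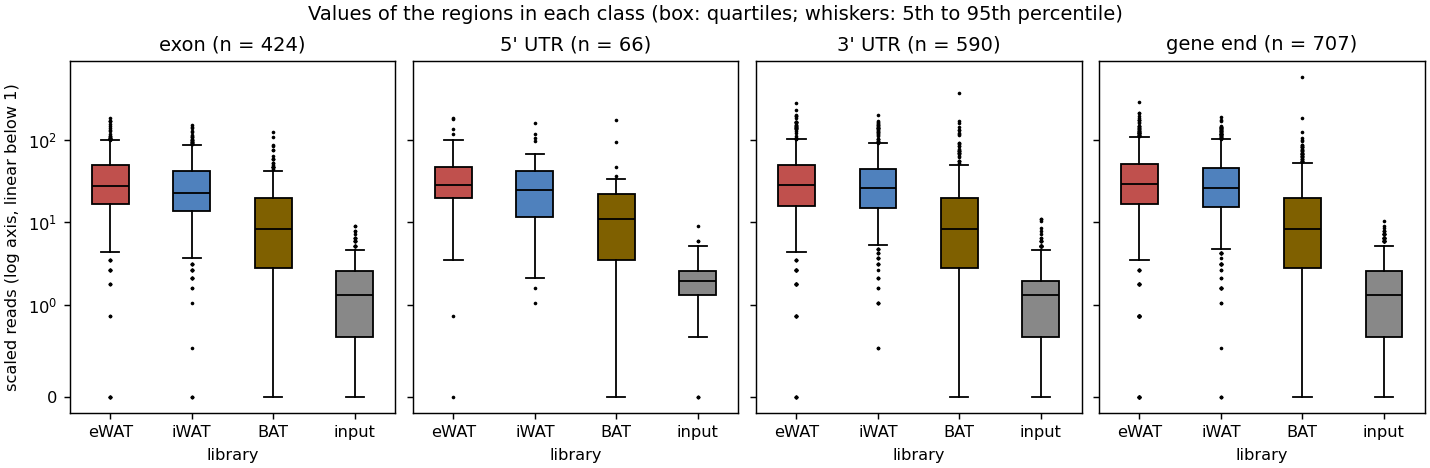
Scaled reads of each region in the 4 classes, by library, on a log axis that is linear below 1. Boxes give quartiles, whiskers the 5th to 95th percentile and dots the regions beyond. In every class the eWAT and iWAT boxes sit at like heights, BAT lies lower and the iWAT input lowest.

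The gene ends held the highest BAT value of the 4 classes. This region, on chromosome 11 from 120403714 to 120403944, lay 7.21 kb from the start of Fam195b, which encodes a small protein that binds the corepressor CtBP. BAT had 569.6 scaled reads there, eWAT 171 and iWAT 83.6 over an input of 3.25, and it ranked 4 among all 69599 regions in BAT. Spata45, named for spermatogenesis, had the highest eWAT value of the 4 classes at its end, chromosome 1 from 192866615 to 192866845, with 286, 188 and 80.2. Gene ends at Olfr70, an olfactory receptor gene, at Ptpro, a receptor phosphatase, at Cyb5a, a haem protein of lipid desaturation, and at Prss45, a serine protease, completed the 6 strongest. Their eWAT values were 210.2, 173, 182 and 208. All of these regions were high in all 3 libraries, with BAT the lowest at 66.4 in Prss45.

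Strong 3′ UTR regions were likewise bound in all 3 libraries. The 3′ UTR of Itpkb, a kinase of inositol phosphates, held one on chromosome 1 from 182352788 to 182353018 with 163 in eWAT, 139 in iWAT and 362 in BAT. The deposited gene name for it was Stum, whose start site was nearer at 60.7 kb. The last exon of Ddx6, an RNA helicase of processing bodies, held one on chromosome 9 from 44447883 to 44448113 with 275, 156 and 141, named for the nearer start of Treh. Ctsc, a lysosomal protease, had one on chromosome 7 from 95459351 to 95459581 with 194, 198 and 169. In eWAT, iWAT and BAT the values at Gfap, an intermediate filament gene, were 197, 142 and 160.4. Pla2g5, a secreted phospholipase, had 227, 80.9 and 129.96. At Itpkb, Gfap and Pla2g5 iWAT was the lowest of the 3. Over the 4 classes, 12 regions reached 100 scaled reads in every TLE3 library.

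In exons the values were lower. The strongest exon region lay in exon 2 of 5 of Tcf20, a coregulator of transcription, on chromosome 15 from 82687135 to 82687365, with 167, 143 and 108. Nrap, a muscle anchoring protein gene, had 155, 75.7 and 122 in exon 28 of 40, and Fnip1, a folliculin partner in energy sensing, had 168, 96.7 and 58.1 in exon 14 of 18. The exon regions of Tmc3, a channel-like gene, and Wwp1, a ubiquitin ligase, both had 30.4 in BAT, which is 11 reads, beside 167 and 147 in eWAT. Tmc3 carried its region in exon 1, at 0.175 kb from the start, and its input of 7.81 was among the higher ones.

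In the 5′ UTR class the strongest region was that of Acoxl. This gene, which encodes an acyl-CoA oxidase-like protein, had 177 in eWAT, 159 in iWAT and 174 in BAT over an input of 3.90, on chromosome 2 from 127680451 to 127680681. Weaker regions with like values in the 3 libraries were those of Myo10, an unconventional myosin, with 30.9, 22.6 and 27.65, and of Aqp7, given below. On the scaling used for the ratios below, which centres each pair of libraries, Acoxl was called higher in BAT than in eWAT, at a log2 ratio of 1.39 (0.95 to 1.80). So were Myo10, at 1.25 (0.07 to 2.30), and Aqp7, at 1.47 (0.40 to 2.45). Acoxl, Myo10 and Aqp7 were also called higher in BAT than in iWAT, at 1.59, 1.74 and 1.11. Arhgap24, a GTPase-activating protein gene, had 135, 105 and 94.0. Spink13, a protease inhibitor gene, had 116 in eWAT and 116 in iWAT but 11.1 in BAT. At Hoxa5, a homeobox gene of body position, eWAT stood apart with 183, 26.8 and 22.1, and Rai14, an actin-binding protein gene, had 80.4, 95.6 and 24.9. Acot3, an acyl-CoA thioesterase gene, had 91.8, 51.5 and 33.2.

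**Figure D2:**
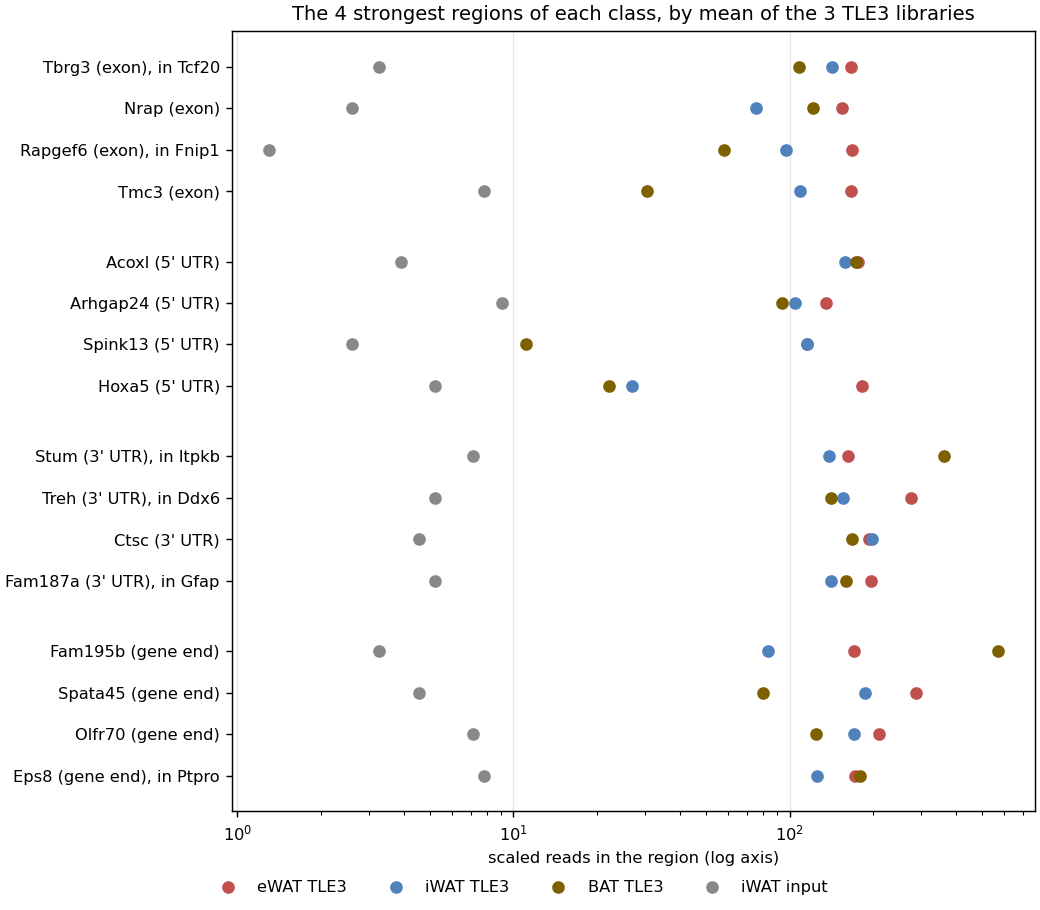
Scaled reads (log axis) of the 4 regions with the highest mean of the 3 TLE3 libraries in each class, named by the nearest start site and, where it differs, by the gene that holds the region. The Fam195b gene end in BAT, at 569.6, is the point farthest to the right, and the iWAT input stays below 10 in every region shown.

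The region's own gene and the gene named by the nearest start site often differed. In 1043 of 1787 regions (58.4%, 56.1 to 60.6%) the annotated transcript belonged to the gene of the nearest start. This held for 273 of 424 exon regions (64.4%), 66 of 66 5′ UTR regions, 286 of 590 3′ UTR regions (48.5%) and 418 of 707 gene ends (59.1%). For 51.5% of 3′ UTR regions the deposited gene name was therefore not that of the gene with the UTR. Levels were alike on both sides of this split, as regions named for their own gene had medians of 29.1, 24.7 and 8.30 and the others 27.8, 24.7 and 8.30. By nearest start there were 1609 genes and by transcript 1639. In 34 genes the transcript carried both a 3′ UTR and a gene-end region.

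Position within the transcript varied by class. Of 424 exon regions, 333 lay in internal exons, 70 in the last, 11 in the first and 10 in the only exon. Of 66 in 5′ UTRs, 44 lay in exon 1 and 21 in a later, internal exon. Those in exon 1 had medians of 29.1 in eWAT, 27.6 in iWAT and 12.4 in BAT, and those in internal exons 23.0, 20.0 and 5.53. All 6 regions of the class that were listed in BAT alone were in exon 1. The median distance to a start site was 274 bp for 5′ UTR regions, 10.1 kb for gene ends, 18.2 kb for exon and 18.2 kb for 3′ UTR regions, against 39.8 kb for all other regions. Another TLE3 region lay within 10 kb of 57.6% of the 1787, against 64.5% of the others. The share was 71.2% for 5′ UTR, 58.6% for 3′ UTR, 57.7% for gene-end and 53.8% for exon regions.

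The lists held 282 of the 1787 regions (15.8%) in all 3 depots and 576 (32.2%) in eWAT and iWAT. These shares were near those of the other regions, 15.9% and 33.1%. Regions listed in a single depot were distributed differently. In eWAT alone there were 488 (27.3%, 25.3 to 29.4%), against 23.1% of other regions, and in iWAT alone 315 (17.6%, 15.9 to 19.5%), against 22.3%. In BAT alone there were 82 (4.59%, 3.71 to 5.66%), against 3.10%. None of these 3 intervals reached the share of the other regions, but regions are not replicates and the libraries differ in depth. Both promoters (27.4%, 11.5% and 9.77%) and introns (24.6%, 20.4% and 3.10%) had more eWAT-alone than iWAT-alone regions, while intergenic regions had 21.5%, 24.4% and 2.80%. By class, the BAT-alone share was 9.09% (4.23 to 18.4%) in 5′ UTRs, 6.13% (4.22 to 8.83%) in exons, 4.07% in 3′ UTRs and 3.68% at gene ends. The intervals of the 4 classes overlap.

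Absence from a list was not absence of reads. Of the 488 eWAT-alone regions, 127 reached 15 scaled reads in iWAT, and their iWAT median was 11.04. BAT had 0 reads at 161 of them. Of the 315 iWAT-alone regions, 62 reached 15 in eWAT, and of the 82 BAT-alone regions 10 reached it in eWAT and 8 in iWAT. No list held a region under 15 scaled reads or under 10 times the input, so a high input could keep a library off a list. Slc29a1, a nucleoside transporter gene, was an example in exon 3 of 12, on chromosome 17 from 45726898 to 45727128. It was listed in eWAT alone with 182, while iWAT had 50.45 and BAT 35.95 over an input of 5.21.

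**Figure D3:**
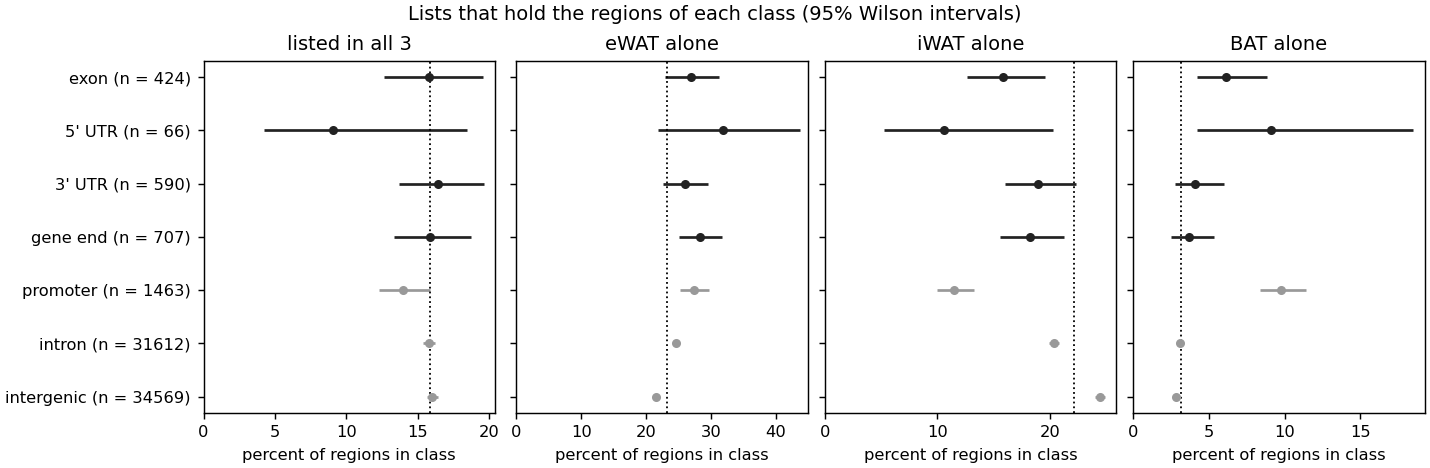
Percent of the regions of each class that were listed in all 3 depots, or in eWAT, iWAT or BAT alone, with 95% Wilson intervals. The dotted line is the share over all 69599 regions. The 4 classes (black) lie left of the line for iWAT alone, with intervals that reach it for 3′ UTRs, and right of it for BAT alone.

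Regions found in 1 list named different genes in each class. In eWAT alone, the strongest gene-end regions were those of Atp13a2, a lysosomal transporter (146, 57.8 and 33.2 in eWAT, iWAT and BAT), and Agbl4, a carboxypeptidase (139, 7.36 and 0). In 3′ UTRs they were those of Thbs1, a matrix glycoprotein, with 163, 21.0 and 5.53, and of Bspry with 148, 84.6 and 69.1 over an input of 10.4. The exon of Plxnd1, a semaphorin receptor, had 97.1, 57.3 and 30.4. Agbl4 and Thbs1 alone in this group fell below 25 in both other libraries.

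In iWAT alone, the strongest gene-end regions were those of Rnf180, a ubiquitin ligase gene, with 6.18, 142 and 2.77, and of Nron, a long noncoding RNA, with 24.7, 140.3 and 19.4. The 3′ UTR of Rpgrip1l, a cilium gene, had 25.6, 160.3 and 19.4 at one region and 2.65, 75.2 and 2.77 at another 1.20 kb away. Atp8b4, a lipid flippase gene, had 11.5, 138 and 8.30 in its 3′ UTR, and Cmpk2, a mitochondrial nucleotide kinase, had 59.2, 122 and 13.8 in exon 1. In 5′ UTRs the strongest iWAT-alone regions were weaker, at Cpq with 30.0, 45.7 and 11.1 and at Prlr, the prolactin receptor, with 25.6, 28.9 and 5.53.

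In BAT alone, the 2 strongest 5′ UTR regions lay in first exons and were nearly free of reads in the white fat libraries. Raly, an RNA-binding protein gene, had 0.88 in eWAT, 2.10 in iWAT and 33.2 in BAT on chromosome 2 from 154617002 to 154617232. Atpaf1, an assembly factor of the mitochondrial ATP synthase, had 3.53, 2.10 and 30.4 on chromosome 4 from 115457426 to 115457656. The BAT values are 12 and 11 reads. Further BAT-alone regions were an exon of Abca7, a lipid transporter, with 4.42, 7.88 and 35.95, and the 3′ UTR of Chtf8 with 15.9, 4.73 and 44.2. Others were less exclusive, such as exon 9 of Trip10 with 20.3, 18.9 and 52.5 and the end of Neurog1, a neural basic helix-loop-helix gene, with 18.5, 23.65 and 49.8.

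Each pair of libraries was then compared region by region. Ratios are log2 ratios of reads, less the median ratio of the strongest 25% of all regions, which was 0.13 between eWAT and iWAT, −1.41 for BAT against eWAT and −1.45 against iWAT. Regions whose mean reached 15 scaled reads were tested, and a region was called where it was past 2-fold and its interval left out 0. Such a call compares 2 libraries, not 2 depots, and the 3 pairs share libraries.

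Between eWAT and iWAT, 211 of 1423 regions (14.8%, 13.1 to 16.8%) were called higher in eWAT, where 12.9% of all regions tested were. Called lower in eWAT were 204 (14.3%, 12.6 to 16.3%), where the figure for all regions was 21.4%. The median ratio was 0.13, against −0.04 over all regions. Lower calls were less frequent in each class than over all regions, at 12.9% of exon, 6% of 5′ UTR, 15.7% of 3′ UTR and 14.8% of gene-end regions. Promoters had 9.99%, introns 19.4% and intergenic regions 24.2%. The 4 classes thus lay between promoters and introns, save that the 5′ UTRs had 3 lower calls in 50.

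The difference varied with distance from start sites. Within 1 kb, 10.6% (5.67 to 18.9%) of the 4 classes and 11.1% of other regions were called lower in eWAT. From 1 to 10 kb the shares were 13.3% (10.6 to 16.5%) and 15.3%. From 10 to 50 kb they were 15.3% (12.7 to 18.3%) and 19.2%, and beyond 50 kb 15.5% (11.2 to 21.1%) and 26.9%. Both shares rose with distance, that of exons, UTRs and gene ends from 10.6% to 15.5% and that of other regions from 11.1% to 26.9%. In introns beyond 50 kb it was 24.3%. The distance bands were compared after the values were seen.

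Examples toward eWAT included gene ends at receptors and enzymes. Agbl4, on chromosome 4 from 111336476 to 111336706 and named for Spata6, reached 139 in eWAT against 7.36 for iWAT, which gave a log2 ratio of 4.10 (3.31 to 5.01). Rnf207, named for Icmt, the carboxyl methyltransferase of prenylated proteins, had 59.2 and 4.73 (3.51, 2.50 to 4.70). Fgfr4, a fibroblast growth factor receptor, had 62.7 and 5.26 at its end (3.44, 2.48 to 4.57). The 3′ UTR of Smim1, a small membrane protein gene, had 72.4 and 6.83 (3.27, 2.42 to 4.24). BAT held 0 reads at Agbl4 and 1 read at each of the other 3.

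Examples toward iWAT were steeper. At the gene end named for Osr2, an odd-skipped transcription factor, on chromosome 15 from 35236114 to 35236344, eWAT had 0.88, which is 1 read, and iWAT 84.1. The log2 ratio was −6.71 (−12.0 to −4.21). The second Rpgrip1l 3′ UTR region, named for Aktip, had 2.65 and 75.2 (−4.96, −7.25 to −3.38). The end of Gabbr1, a GABA receptor gene, named for Olfr90, had 2.65 and 72.5 (−4.91, −7.20 to −3.33). The 3′ UTR of Colgalt2, a collagen galactosyltransferase, had 2.65 and 69.4 (−4.84, −7.14 to −3.26). In each of these 4, eWAT held 3 reads or fewer.

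**Figure D4:**
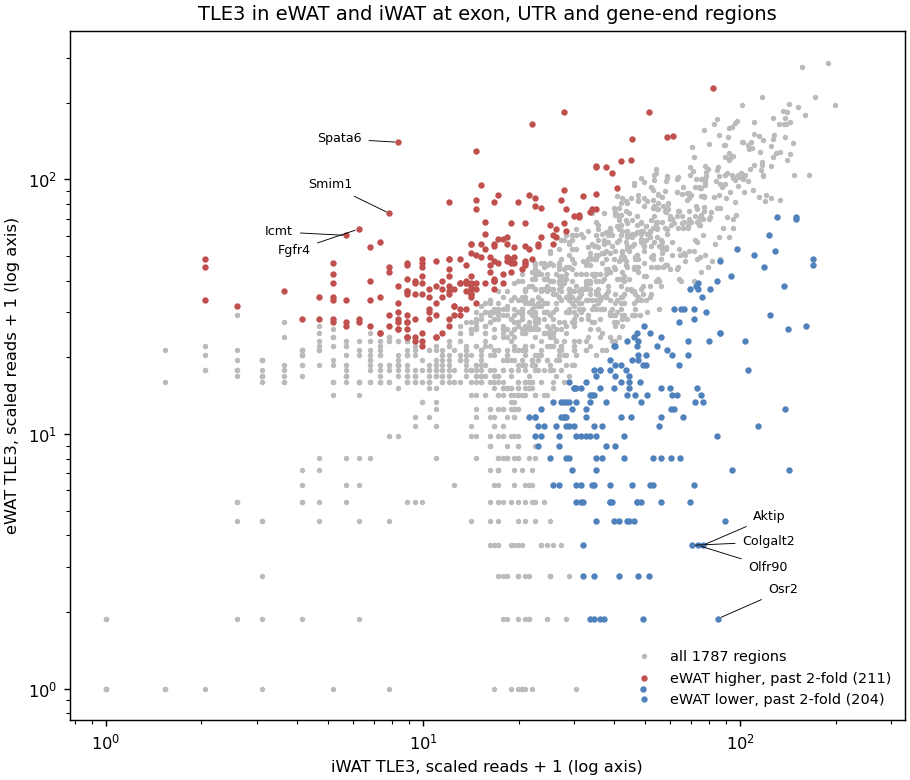
Scaled reads plus 1 in eWAT against iWAT (log axes) for the 1787 regions, with the 211 called higher in eWAT in red and the 204 called lower in blue. The named points are the 4 largest ratios in each direction among regions with a mean of at least 30. Osr2 lies lowest of them, at 1 read in eWAT.

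BAT against eWAT gave 167 of 1115 regions (15.0%, 13.003 to 17.2%) higher in BAT, where 13.6% of all regions were. Lower in BAT were 124 (11.1%, 9.41 to 13.1%), where 11.4% of all regions were. Both shares are near those of all regions. On the authors' own scaling the counts were 35 higher and 693 lower, or 3.14% and 62.2%, beside 2.62% and 62.2% of all regions. With scaling on regions listed in all 3 depots they were 79 and 394, or 7.09% and 35.3%, beside 6.21% and 34.6%. The direction of the split thus depends on the scaling, while the shares stay near those of all regions.

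BAT against iWAT gave 209 of 1044 regions (20.0%, 17.7 to 22.6%) higher in BAT, where 15.6% of all regions were. Lower in BAT were 77 (7.38%, 5.94 to 9.12%), where 11.7% of all regions were. On the authors' scaling the counts were 42 and 573, and on regions listed in all 3 depots 88 and 332. The lower shares remained under those of all regions there too, at 54.9% against 63.2% and at 31.8% against 39.8%. By class, 22.0% of exon, 25.6% of 5′ UTR, 20.8% of 3′ UTR and 17.7% of gene-end regions were higher in BAT, and 25.2% of promoters.

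**Figure D5:**
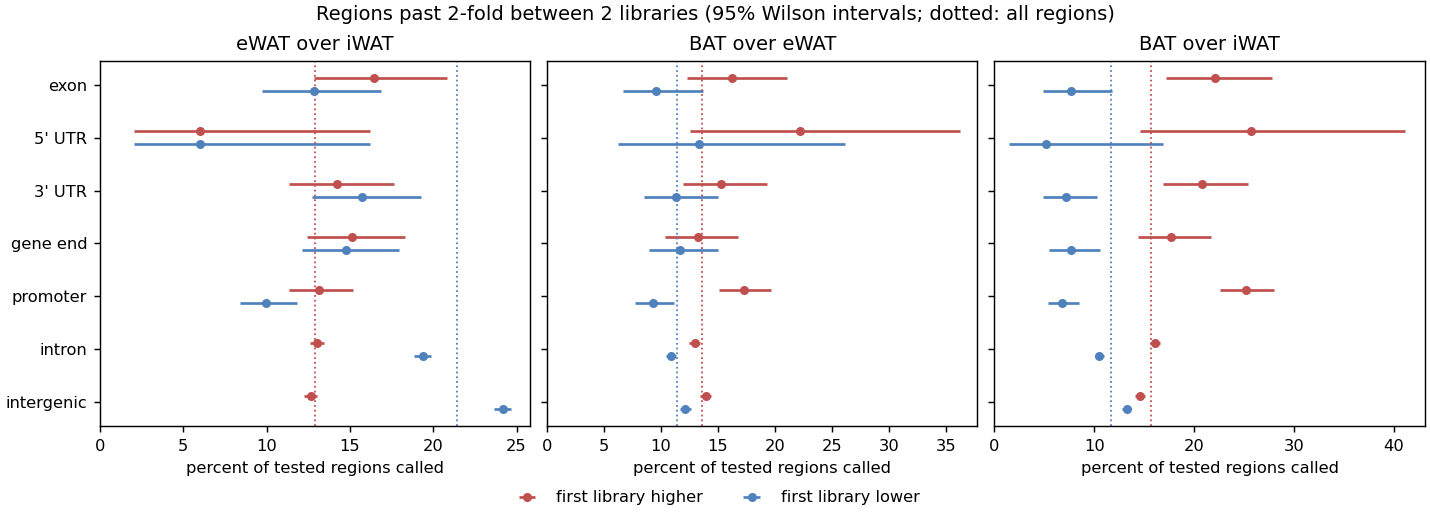
Percent of tested regions called higher (red) or lower (blue) in the first library of each pair, by class, with 95% Wilson intervals. Dotted lines give all regions. Lower eWAT calls rise from promoters, at 9.99%, to intergenic regions, at 24.2%, and the 4 classes at the top lie to the left of their line.

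Toward BAT, the Fam195b end described above led against iWAT, with a log2 ratio of 4.22 (3.92 to 4.53), and had 3.15 (2.86 to 3.44) against eWAT. Slc48a1, a haem transporter gene, had 13.2 in eWAT, 13.7 in iWAT and 55.3 in BAT in its 3′ UTR, with ratios of 3.47 (2.43 to 4.54) and 3.47 (2.55 to 4.37). An exon of Spats1, named for B230354K17Rik, had 16.8, 18.9 and 58.1, and its ratio to eWAT was 3.20 (2.24 to 4.18). The end of Fam83d, named for Dhx35, had 18.5, 18.4 and 58.1 (3.06, 2.11 to 4.00, against eWAT). In the 3′ UTR of Dyrk1a, a protein kinase gene, the values were 45.9, 21.55 and 83.0, and the ratio to iWAT was 3.40 (2.67 to 4.11). The end of Thap6, named for Rchy1, had 85.7, 16.3 and 69.1 (3.54, 2.72 to 4.35, against iWAT). All of these ratios kept their calls under the 3 other scalings.

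The regions lowest in BAT rested on 1 BAT read each, so their ratios are wide. Neurl3, a ubiquitin ligase gene, had 118 in eWAT, 44.1 in iWAT and 2.77 in BAT at its end, with −4.01 (−9.32 to −1.50) against eWAT. Zcchc3, a cofactor of nucleic acid sensing, had 110.4, 36.8 and 2.77 (−3.91, −9.22 to −1.40), and Tmem9b, named for Ascl3, 102, 68.3 and 2.77 (−3.80, −9.12 to −1.29). The 3′ UTR of Stk38l, a kinase gene named here for Arntl2, had 97.1, 83.0 and 2.77, with −3.72 (−9.04 to −1.21) against eWAT and −3.46 (−8.77 to −0.96) against iWAT. Against iWAT the end of Rnf180, named for 4933425L06Rik, had −4.23 (−9.54 to −1.74). The end of 1700120G07Rik had 40.6, 92.5 and 2.77 (−3.61, −8.92 to −1.11, against iWAT), and that of Rai2 69.8, 79.35 and 2.77 (−3.39, −8.70 to −0.89).

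Several genes carried more than 1 such region. Jag1, a Notch ligand gene, had 4 by nearest start. Its own exon 7 had 38.9 in eWAT, 53.1 in iWAT and 24.9 in BAT, and its end had 35.3, 45.2 and 19.4. The other two lay in the last exon of the neighbouring Slx4ip, each with 2.77 in BAT. Mki67, the proliferation marker Ki-67, had 3 in its own exons. Their eWAT values were 90.1, 55.6 and 22.1, their iWAT values 52.0, 36.3 and 22.6 and their BAT values 52.5, 33.2 and 5.53. The 3 regions named for Relt lay in the 3′ UTRs of Fam168a and Arhgef17, at up to 159 scaled reads in eWAT. The 3 named for Ccdc27 lay at the end and in the 3′ UTR of Trp73, a p53 family gene, and 9130401M01Rik had 3, of which 2 lay at Zhx1.

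Genes of Wnt and Notch signalling, which act through TLE-binding factors, were counted by name. Of 34 such genes with any TLE3 region, 7 (20.6%) had one in these classes, where 11.3% of all 14265 named genes did. A gene with more TLE3 regions has more chances of one in these classes. The number of regions per gene was not matched, here or for the lists below, so these shares show no enrichment. Wnt11, a Wnt ligand, had 126 in eWAT, 129 in iWAT and 71.9 in BAT in its 3′ UTR, and Fzd4, a Wnt receptor, had 83.0, 124 and 77.4 over an input of 0. Fzd7, another receptor, had 26.5, 15.2 and 33.2 in its 3′ UTR and 40.6, 48.9 and 13.8 at its end. Axin2, a feedback inhibitor of Wnt signalling, had 27.4, 30.5 and 13.8 in its first exon, and Wnt5b 34.4, 8.93 and 5.53 in exon 3. Wisp1, a Wnt target, had 18.5, 7.36 and 0. The 11 regions of the list had 1 call higher and 0 lower in eWAT against iWAT among 10 tested, beside 12.9% and 21.4% of all regions. In BAT against eWAT 2 of 9 were higher and 0 lower, beside 13.6% and 11.4%. The higher counts are near those shares. On the authors' scaling the counts in BAT were 0 and 3, beside 2.62% and 62.2% of all regions. On regions listed in all 3 depots they were 0 and 1, beside 6.21% and 34.6%. Tcf7, a factor of the TCF family, was reached only by transcript, as its 3′ UTR region was named for Skp1a.

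Genes of adipocyte identity and lipid storage numbered 8 of 37 (21.6%). Cebpa, a master regulator of fat cells, had 44.2 in eWAT, 78.3 in iWAT and 33.2 in BAT in the 3′ UTR of its only exon, 2.14 kb from its start. Pnpla2, the triglyceride lipase, was named for a region at the end of Rplp2 with 77.7, 52.55 and 22.1. Plin4 was named for a region at the end of Plin5, both lipid droplet genes, with 36.2, 47.8 and 24.9. Aqp7, a glycerol channel gene, had 31.8, 42.0 and 33.2 in its first exon, Plin2 17.7, 20.0 and 19.4 in its last exon, and Scd1 21.2, 26.3 and 5.53 at its end. A region named for Gpd1 but at the end of Smarcd1 had 11.5, 18.4 and 35.95. Of 6 tested in BAT against eWAT, 3 were higher in BAT and 0 lower, beside 13.6% and 11.4% of all regions. Of 8 against iWAT 2 were higher and 0 lower, beside 15.6% and 11.7%. Their medians of 1.24 and 0.36 stood beside −0.22 and −0.22 over all regions. The lean to BAT is not kept under every scaling. On that of the authors 1 was higher and 1 lower against eWAT, beside 2.62% and 62.2% of all regions. Against iWAT the counts were 0 and 4, beside 2.78% and 63.2%. The region named for Cd36, in the 3′ UTR of Sema3c, had 9.71, 35.7 and 5.53. It was the 1 of 7 called lower in eWAT than in iWAT, where 21.4% of all regions were. These counts are by nearest start. By transcript, a 3′ UTR region of Scd2, named for Mir5114, had 18.5, 46.8 and 13.8. It too was called lower in eWAT than in iWAT, at −1.47 (−2.23 to −0.77).

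Extracellular matrix genes had 11 of 43 (25.6%). Col12a1, a fibril-associated collagen, held regions in exons 16, 42 and 59 of 66. Exon 42 had 49.5, 52.0 and 13.8, exon 16 19.4, 21.55 and 38.7, and exon 59, where the nearest start was that of Gm10635, 49.5, 59.9 and 47.0, in eWAT, iWAT and BAT. Col6a3 had 67.1, 55.7 and 19.4 in exon 38 of 46. Col6a1 had 46.8, 9.98 and 0 at its end, Mmp14, a membrane metalloprotease gene, 58.3, 22.6 and 2.77, and Col27a1 35.3, 2.63 and 0 in exon 3. With Thbs1, these were the 4 called higher in eWAT among 8 tested against iWAT, and 0 were called lower, beside 12.9% and 21.4% of all regions. In BAT against eWAT, 3 of 7 were lower and 1 was higher, beside 11.4% and 13.6% of all regions. On the authors' scaling 6 were lower and 0 higher, beside 62.2% and 2.62% of all regions. All these counts are by nearest start. Reached by transcript only, exon 98 of Col7a1, named for Ucn2, had 22.1 in eWAT and 43.1 in iWAT. It was called lower in eWAT, at −1.10 (−1.81 to −0.44). Exon 59 of Col12a1 was called higher in BAT than in eWAT, at 1.34 (0.46 to 2.14).

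Transcription factors and coregulators of fat cells had 6 of 40 (15.0%). Klf6, a zinc finger factor, had 143, 126 and 60.8 at its end, Klf2 83.0, 41.5 and 5.53, and Bcl6, a repressor, 45.9, 16.3 and 8.30. Foxo1, a target of insulin signalling, had 21.2, 4.73 and 5.53 in its 3′ UTR, and Nrip1, a corepressor of nuclear receptors, 23.0, 9.98 and 5.53 in its last exon. Bcl6 and Nrip1 were the 2 of 4 tested that were called higher in eWAT than in iWAT, where 12.9% of all regions were. Klf2 was the 1 of 3 called lower in BAT than in eWAT, where 11.4% of all regions were. On the authors' scaling 3 of 3 were lower in BAT, where 62.2% of all regions were. On regions listed in all 3 depots 2 of 3 were, beside 34.6%.

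Homeobox and depot-developmental genes had 3 of 31. Besides Hoxa5, the end of Hoxa4 had 43.3, 62.0 and 66.4. Against eWAT the neighbours Hoxa4 and Hoxa5 ran in opposite directions in BAT, since Hoxa5 was called lower in BAT than in eWAT, at −1.63 (−2.87 to −0.63), and Hoxa4 higher, at 2.03 (1.26 to 2.76). On the authors' scaling Hoxa5 was at −3.05 and still called, and Hoxa4 at 0.62 and not. Against iWAT both were above 0 in BAT, at 1.55 for Hoxa4, which was called, and 1.18 for Hoxa5, which was not. On the authors' scaling these were 0.10 and −0.28, and neither was called.

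Thermogenesis had 1 of 23 genes (4.35%), beside 11.3% of all named genes. It was Adrb3, the β3-adrenergic receptor, whose 5′ UTR region had 19.4, 7.88 and 0. By transcript, Ppard with 25.6, 5.78 and 0 and Ppargc1b with 65.35, 73.6 and 22.1 were added, each named for a neighbour. Insulin and glucose genes had 3 of 31 (9.68%), near the share of all named genes. Tbc1d1, a regulator of glucose transporter traffic, had 43.3, 39.4 and 47.0 in exon 10 of 19, Pdk1, a kinase of pyruvate dehydrogenase, 10.6, 13.7 and 22.1, and a region named for Gapdh in exon 21 of Ncapd2 23.8, 14.7 and 5.53. Nuclear-encoded mitochondrial genes had 2 of 24 (8.33%). Atp5g3, an ATP synthase subunit gene, had 33.6, 41.5 and 22.1 in its 5′ UTR and 26.5, 18.9 and 5.53 in exon 4. The region named for Cox6c, at 104 kb and within Vps13b, had 7.06, 5.26 and 24.9.

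Markers of other cell types were counted too, as binding and not as expression. Members of the 4 classes were found for 2 of 10 preadipocyte and fibroblast genes, 1 of 5 mesothelial genes and 1 of 4 neuronal genes. They were found for 0 of 5 macrophage, 0 of 6 endothelial, 0 of 4 skeletal muscle and 0 of 3 hepatocyte genes. Of all named genes 11.3% had one, and lists this short cannot separate their counts, 0 included, from that share. The fibroblast genes were Pi16, named for a 3′ UTR region of a neighbour with 93.6, 14.2 and 5.53, and Dpp4, named for one of Slc4a10 with 8.83, 13.1 and 27.65. The mesothelial gene was Lrrn4 with 15.0, 20.0 and 5.53. The neuronal gene was Tubb3, whose regions lay in the 3′ UTR of Mc1r.

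Among the 5′ UTR regions, 4 at genes of leukocytes were listed in eWAT alone. They are named after their values were seen. Mpeg1, a perforin of macrophages, had 26.5, 4.20 and 0, and Cd300a and Cd300c2, myeloid receptor genes, had 22.1, 3.68 and 2.77 and 19.4, 1.05 and 0. Ikzf1, a lymphoid transcription factor, had 16.8, 5.78 and 5.53. Their eWAT values were 19 to 30 reads, against 2 to 11 reads in iWAT and 0 to 2 in BAT. Outside the 4 classes, the macrophage list too had its highest values in eWAT. Its 5 genes with a region, Adgre1, Csf1r, Itgam, Lyz2 and Mrc1, had 10 regions, whose summed values were 305 for eWAT, 112 for iWAT and 58.1 for BAT over an input of 15.6. Each gene was highest in eWAT, from 38.9 at Lyz2 to 91.8 at Mrc1, and Adgre1 and Lyz2 had 0 reads in BAT. The part of macrophages in these values was not tested. Frzb, a secreted Wnt antagonist, showed the same listing with 30.9, 1.58 and 0.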

How the data were processed

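TLE3 ChIP-seq was measured in 3 libraries, 1 per depot, beside 1 iWAT input. The submitters' processing notes name STAR, HOMER and mm9, without version or role. The peak caller and its settings are not given in the sources used here. The deposited values are a signal, the scaled reads of all 4 libraries in each region, per the file headers. The deposited peak score is 0 in every line and was not used. Within a library, all values were multiples of a single step to within 0.1 read, and dividing by it gave reads.

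The lists were joined by region identifier. Classes, nearest genes and distances are the deposited ones, and 1 annotated transcript could not be matched to a gene. Shares have Wilson intervals and ratios exact Clopper-Pearson intervals at 95% (Python, scipy). A library at 0 reads entered a ratio at 3 reads. With 1 library per depot no test of depots was made. On simulated reads, 4-fold changes were recovered in 99.5% or more of the changed regions, all drawn from those with a mean of at least 30. Over runs with 4-fold and 8-fold changes at most 2.21% of unchanged regions were called. The simulation held counting error only and gave unchanged regions the same level in both libraries. Its rates therefore do not carry over to weak regions or to the lower level of BAT.

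Regions named are the 6 strongest of each class, the 4 largest called ratios in each direction and pair with a mean of at least 30, up to 3 genes per list, the 5 genes with most regions, the 3 highest inputs and the 2 strongest listed in 1 depot. Other members of the lists, the leukocyte genes and the distance bands were chosen after the values were seen. A few regions that this rule names are not reported here. The classes, lists and rules were chosen with earlier results of these data known. The alternatives are other scalings, folds, minimum values, list sizes and the gene of the transcript.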

Additional observations from a re-analysis of the deposited data

How the results depend on the processing

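With 1 library per depot no replicate could be left out. No paired analysis was possible because each group has 1 library and the result comes from no test. In all, 44 of 78 alternatives kept their value within its counting interval or within 1.5 times, and all 72 alternative scalings of the 24 single ratios kept direction and call. By the detailed annotation 0 of 1787 regions changed class. Members made up 2.37% of the iWAT list and 2.71% of the BAT list, and 2.07% of the strongest 15042 iWAT regions and 2.71% of the strongest 15042 BAT regions. Where only regions listed in the library itself counted, the eWAT median was 36.2, that of iWAT 34.7 and that of BAT 27.65. With a minimum of 30 scaled reads, 12.95% were listed in all 3 depots, 30.8% in eWAT alone and 2.89% in BAT alone. At low input, 20.0% were listed in iWAT alone. Medians of the input did not differ from those of other regions, while the share with an input of at least 5 was 0.46 percentage points higher.

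Counts of calls moved with the threshold. No share over all regions was computed for other folds or minimums, the fold alone or scaled values plus 1. The counts at those settings therefore do not compare these regions with the rest. With 1.5-fold, 358 regions were higher in eWAT than in iWAT. With 3-fold, 106 were higher and 123 lower, and BAT was higher than eWAT at 108 and than iWAT at 122. With a mean of at least 30, the counts were 88, 88, 82 and 108 in that order. With no minimum, 326 were higher in eWAT than in iWAT. BAT depended on scaling. On the authors' own, 35 were higher and 693 lower than in eWAT, beside 2.62% and 62.2% of all regions. Against iWAT they were 42 and 573, beside 2.78% and 63.2%. On regions listed in all 3 depots the counts were 79 and 394, beside 6.21% and 34.6%, and 88 and 332, beside 6.16% and 39.8%. With the fold alone, 283 and 230 were lower in BAT than in eWAT and iWAT, and with scaled values plus 1, 317 and 232. The cause was not tested, beyond the lower counts that a stricter rule gives by construction. By transcript, thermogenesis had 3 genes with a region and the fibroblast list 0. At 1 BAT read for 2.77 scaled reads, depth limits every BAT ratio of a weak region.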
